A study of Mus musculus with 4 samples.

Results

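The 10 genes described here are those of the MHC class II antigen presentation machinery of the mouse: H2-Aa, H2-Ab1, H2-Eb1, H2-DMa, H2-DMb1, H2-DMb2, H2-Oa, H2-Ob, Cd74 and Ciita. They were taken by symbol, and all 10 were found among the 32285 genes of the count table. They were followed through leukocytes of the ovary, 48 h after gonadotropin treatment (Gonadotropin group, 5 mice) or saline (labelled Untreated, 5 mice), in C57BL/6J females aged 10 to 12 weeks. Viable CD45+ cells were sorted, hashtag antibodies marked the mouse of origin, and each group went into 1 droplet library of 5 mice, so that treatment and library cannot be told apart. After filtering, 2423 cells of the Gonadotropin mice and 2495 cells of the Untreated mice remained, with 2608262 to 7097779 UMIs (unique molecular identifiers, each standing for 1 counted transcript) per Gonadotropin mouse and 2559097 to 6500466 per Untreated mouse. The libraries shared 4 cell barcodes, 2 of them among the kept cells. The 10 genes made up 395554 UMIs, or 0.946% of all UMIs in kept cells.

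Class II molecules are pairs of an alpha and a beta chain that carry peptides from endosomes to the surface, where CD4+ T cells read them. The invariant chain Cd74 fills the groove of new molecules and guides them to endosomes, the non-classical molecule H2-M (H2-DMa with H2-DMb1 or H2-DMb2) exchanges the last piece of Cd74 for peptide, and H2-O (H2-Oa with H2-Ob) restrains H2-M. Ciita is a co-activator of class II genes, and acts by joining the RFX, CREB and NF-Y factors bound to a conserved promoter module. B cells, dendritic cells and macrophages are the professional presenting cells. The strain C57BL/6 has no functional H2-Ea gene, so its H2-Eb1 chain lacks the usual partner.

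In RefSeq's GRCm38.p6 annotation, 8 of the genes lie within 1 stretch of chromosome 17, from the start of H2-Oa at 34092379 to the end of H2-Eb1 at 34316674, while Ciita and Cd74 lie on other chromosomes. RefSeq promoter windows (250 bases before to 50 bases after the start) were at hand for 7 of the 10 genes, in 8 windows, with 2 windows for H2-DMa. The stretches from 125 to 31 bases before the start are shown for 6 genes, 5 in which the words of the module that Ciita acts through can be read as a pair, and H2-Oa, which lacks the pair. Capitals mark TGATG or TGACG, letters of the CREB-type part of the module, and ATTGG, the NF-Y part.

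H2-Aa (chr17:34287854-34287948, minus strand): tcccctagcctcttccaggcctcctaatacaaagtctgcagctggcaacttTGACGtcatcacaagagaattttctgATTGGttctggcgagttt
H2-Eb1 (chr17:34305742-34305836, plus strand): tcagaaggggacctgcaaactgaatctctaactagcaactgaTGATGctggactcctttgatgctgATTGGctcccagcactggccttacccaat
H2-DMb1 (chr17:34153066-34153160, plus strand): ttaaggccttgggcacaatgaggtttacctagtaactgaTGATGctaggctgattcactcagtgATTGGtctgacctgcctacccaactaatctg
H2-DMb2 (chr17:34145124-34145218, plus strand): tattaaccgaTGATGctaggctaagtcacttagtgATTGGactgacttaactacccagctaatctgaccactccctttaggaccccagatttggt
H2-Ob (chr17:34238780-34238874, plus strand): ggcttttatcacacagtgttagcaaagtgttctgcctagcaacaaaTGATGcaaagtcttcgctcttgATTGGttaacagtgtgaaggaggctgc
H2-Oa (chr17:34092254-34092348, plus strand): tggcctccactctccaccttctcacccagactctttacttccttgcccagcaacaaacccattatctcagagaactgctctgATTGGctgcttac

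TGATG or TGACG followed 10 to 30 bases on by ATTGG, read in the direction of the gene, was found in 5 of the 8 member windows and in 323 of all 32851 promoter windows (0.983%), or in 606 (1.84%) with both strands counted. Alone, the words are common: 39.3% of all windows hold TGATG, 20.8% hold TGACG and 37.4% hold ATTGG on either strand. The spacing was chosen after the sequences were seen, and in H2-DMb1 and H2-Eb1 the marked word overlaps another TGATG (TGATGATG). The H2-Oa window held ATTGG, 43 bases before the start, without the partner word, and the H2-DMa windows held no such pair. The windows of the neighbouring beta chain genes H2-DMb1 and H2-DMb2 had 208 identical bases among 247 aligned ones (84.2%), yet these genes differed widely between cell types.

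Cells were assigned to types by how many markers of fixed lists they expressed, with none of the 10 genes among the markers. The gates held 738 cells of Gonadotropin and 768 cells of Untreated mice for follicular B cells, 132 and 333 for B-1-type B cells, 29 and 30 for dendritic cells, 78 and 42 for macrophages, and 124 and 83 for monocytes. Other cells were left unassigned. Among the markers that the gates used, Ighd was detected in 98.9% of follicular B cells, but also in 61.7% of B-1-type cells. Zbtb32 was detected in 75.7% of B-1-type cells against 0.598% of follicular B cells, but the B-1 marker Mzb1 in 98.5% against 70.3%. C1qb was detected in 98.3% of macrophages against 4.83% of monocytes. Other macrophage markers were less clear: Apoe was in 94.2% of macrophages and 88.4% of monocytes, and Mertk in 50% of macrophages. The dendritic markers ranged from 6.78% (Fscn1) to 86.4% (Flt3) of dendritic cells. Ccr2 was detected in 62.8% of monocytes and in 83.1% of dendritic cells, so it did not mark monocytes alone. Its log2 fold change of monocytes over macrophages was 0.04 ± 0.22 (SE). The B-1-type gate marks a resemblance to B-1 cells in these genes. T cells (509 and 609), NK cells (361 and 176) and neutrophils (72 and 34) served as cells in which the genes are low.

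Among the types, dendritic cells had the highest class II level per UMI. The 10 genes together came to 43592, 42421 and 32903 CPM (counts per 1e6 UMIs) in the dendritic cells of Gonadotropin mice 2, 4 and 5, against 40017, 40396 and 50444 CPM in Untreated mice 2, 4 and 5, the 6 mice with at least 5 such cells. Follicular B cells followed with 17589 ± 937 CPM (SD, n = 10 mice), then macrophages with 16079 ± 6475 CPM, B-1-type B cells with 12187 ± 646 CPM and monocytes with 2231 ± 1115 CPM. T cells had 113 ± 51.1, neutrophils 102 ± 37.7 and NK cells 97.2 ± 23.0 CPM. The mice of dendritic cells did not overlap those of any other type, and those of B-1-type cells lay below all mice of follicular B cells. Macrophages overlapped both B cell types, because their mice spread from 6882 to 25506 CPM.

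**Figure D1:**
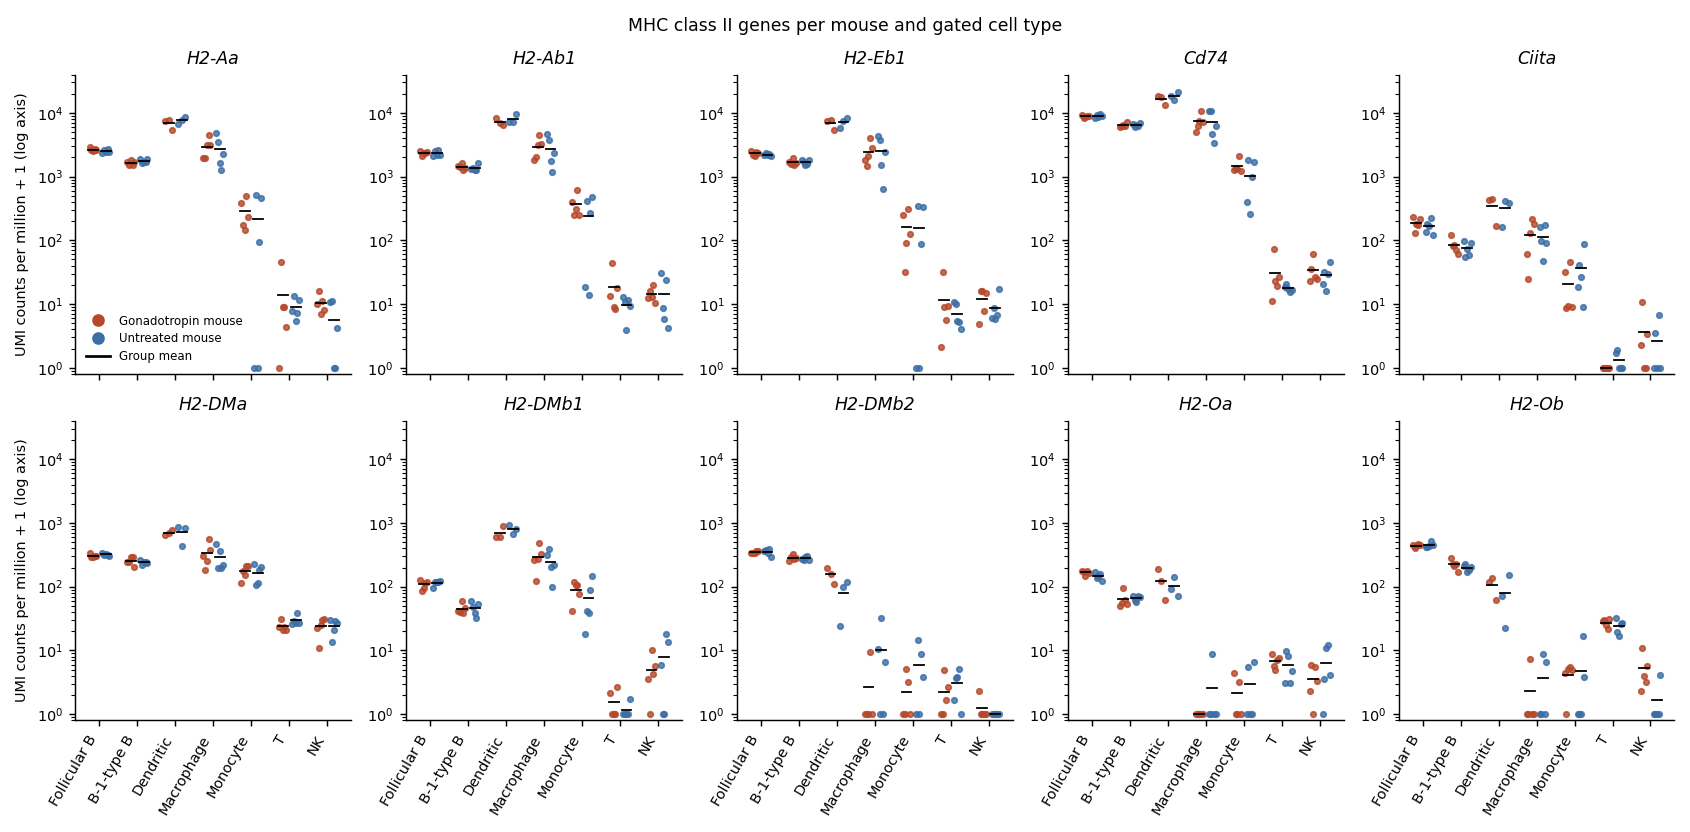
CPM plus 1, on a log axis, of each class II gene in each gated cell type. Each point is 1 mouse with at least 5 cells of the type, black lines are group means, and Gonadotropin mice stand left of Untreated mice. The classical chains, Cd74, Ciita, H2-DMa and H2-DMb1 are highest in dendritic cells, whereas H2-DMb2 and H2-Ob are highest in B cells and near 0 in macrophages and monocytes.

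The classical chains H2-Aa, H2-Ab1 and H2-Eb1, which form the peptide-binding molecules, kept the same order of types. H2-Aa averaged 7262 ± 1120 CPM in dendritic cells (SD, n = 6 mice), 2823 ± 1224 CPM in macrophages, 2577 ± 151 CPM in follicular B cells, 1700 ± 131 CPM in B-1-type cells and 248 ± 199 CPM in monocytes (n = 10 mice each). Neighbours in this order were separate in every mouse except macrophages and follicular B cells. H2-Ab1 and H2-Eb1 had the same places, and again only the macrophage and follicular B cell mice overlapped among these 5 types. Because the reads come from transcript 3' ends, a CPM is a share of molecules and needs no correction for length.

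Cd74, the invariant chain, was the most abundant member in every one of the 5 types, at 17572 ± 2640 CPM in dendritic cells, 8863 ± 473 CPM in follicular B cells and 6477 ± 398 CPM in B-1-type cells. Its ratio to H2-Ab1 differed between types: 2.30 ± 0.19 Cd74 counts per H2-Ab1 count in dendritic cells (n = 6) and 2.62 ± 0.27 in macrophages, against 3.8 ± 0.16 in follicular B cells and 4.66 ± 0.47 in B-1-type cells (n = 10 each). No follicular B cell mouse reached down to the dendritic or macrophage mice, the lowest having 3.59 and the highest macrophage mouse 3.04. Monocytes spread from 3.22 to 23.0, the highest values coming from mice with very few H2-Ab1 counts.

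The beta chains of H2-M, the peptide exchanger, were used differently by B cells and phagocytes. H2-DMb2 made up 75.9% ± 2.81 of the H2-DMb1 and H2-DMb2 counts in follicular B cells and 86.3% ± 2.6 in B-1-type cells, against 14.1% ± 8.0 in dendritic cells, 2.05% ± 4.13 in macrophages and 4.10% ± 7.80 in monocytes. The lowest follicular B cell mouse stood at 71.0% and the highest dendritic mouse at 24.8%, so the mice were far apart. H2-DMb1 on its own ran the other way, with 752 ± 154 CPM in dendritic cells and 269 ± 117 CPM in macrophages against 111 ± 14.7 CPM in follicular B cells and 44.7 ± 9.06 CPM in B-1-type cells. The 2 beta chain genes are neighbours of like sequence, and the counting could assign reads of one to the other. H2-DMa, the alpha chain that both share, was more even, from 712 ± 161 CPM in dendritic cells over 314 ± 14.7 CPM in follicular B cells to 169 ± 45.2 CPM in monocytes.

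H2-O, the brake on H2-M, was highest in follicular B cells and nearly absent from macrophages, and its chains differed in the order of the other types. H2-Oa averaged 156 ± 18.4 CPM in follicular B cells, 111 ± 47.0 CPM in dendritic cells and 63.8 ± 13.3 CPM in B-1-type cells, with the dendritic mice overlapping both. H2-Ob averaged 444 ± 30.2 CPM in follicular B cells, 210.8 ± 34.3 CPM in B-1-type cells and 92.5 ± 49.6 CPM in dendritic cells. Macrophages of both groups together held 4 counts of H2-Ob and 1 count of H2-Oa in 1387695 UMIs, and 8 counts of H2-DMb2. H2-Oa and H2-Ob together came to 77.7 ± 4.15 counts per 100 H2-M counts in follicular B cells, 48.1 ± 6.47 in B-1-type cells, 13.4 ± 5.38 in dendritic cells and 0.511 ± 0.906 in macrophages. The mice of these 4 types fell in separate ranges: the lowest follicular B cell mouse had 68.7, the B-1-type mice ran from 39.0 to 62.1, the dendritic mice from 6.90 to 21.3, and the highest macrophage mouse had 2.63. The summed B cell markers (6 genes, all detected) were at 15.4 to 19.6 CPM in dendritic cells of Gonadotropin and 19.9 to 64.1 CPM in those of Untreated mice, against 7953 to 9079 and 7899 to 9867 CPM in follicular B cells. The dendritic gate left out cells with more than a few of these same markers, so their low level was set in part by the gate. Carry-over of B cell transcripts was not tested.

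**Figure D2:**
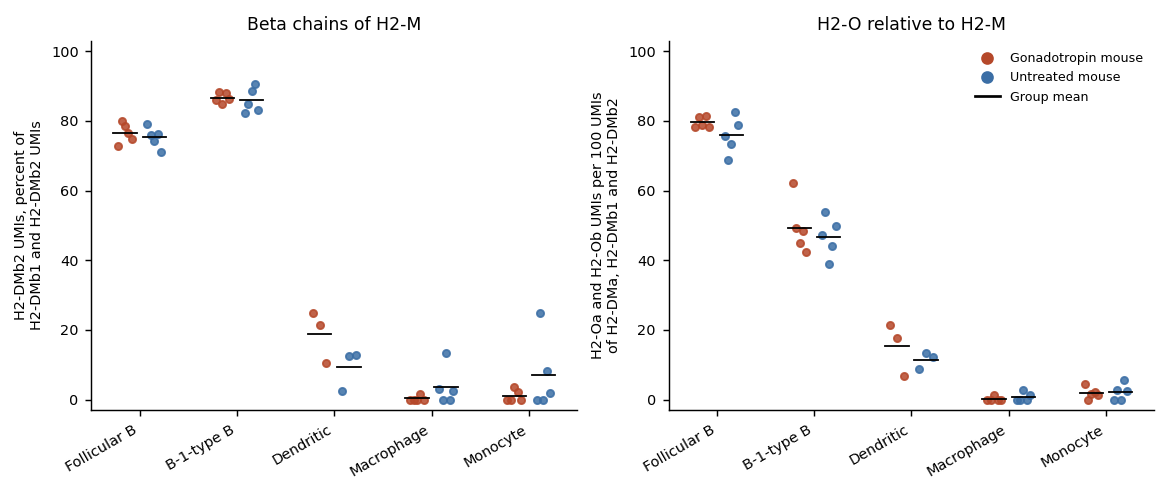
Left, H2-DMb2 UMIs as a percent of H2-DMb1 and H2-DMb2 UMIs. Right, H2-Oa and H2-Ob UMIs per 100 UMIs of the H2-M genes. Each point is 1 mouse and black lines are group means, with Gonadotropin left of Untreated. Both measures are high in B cells (75.9% and 77.7 in follicular B cells), lower in dendritic cells (14.1% and 13.4) and near 0 in macrophages.

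A low level of some members was also found outside the presenting cells. T cells had 19.8 to 37.7 CPM of H2-DMa over the 10 mice and 15.9 to 30.8 CPM of H2-Ob, with no overlap of H2-Ob with NK cells (0 to 9.82 CPM). In pooled T cells, H2-Ob had 110 counts in Gonadotropin and 124 counts in Untreated mice, against 55 and 44 counts of H2-Aa. In follicular B cells the order was the reverse, with 2101 and 2169 counts of H2-Ob against 12625 and 12316 counts of H2-Aa. Summed B cell markers were at 14.7 to 20.3 CPM in T cells of Gonadotropin mice and 14.7 to 32.0 CPM in those of Untreated mice. The T cell gate also limited these markers, so their low level there was set in part by the gate. NK cells had 9.82 to 30.6 CPM of H2-DMa, and neutrophils 0 to 20.1 CPM.

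B-1 cells are an innate-like B cell class of body cavities, and follicular B cells the recirculating class that takes up help from T cells. Within the same 10 mice, with the mouse as a block, B-1-type cells had lower levels per UMI of 8 members than follicular B cells. None was higher (edgeR's quasi-likelihood test, Benjamini-Hochberg adjusted p under 0.05). In this comparison 41.8% of the 8719 genes tested passed, 19.2% as lower, so that many genes differ between these types. The median log2 fold change of the members was -0.50, against -0.00 over all genes.

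The largest differences were in H2-DMb1, H2-Oa, Ciita and H2-Ob. H2-DMb1 had a median of 42.5 CPM in B-1-type cells, from 31.8 to 58.0, against 118 CPM in follicular B cells, from 83.6 to 128, with no overlap (log2 fold change -1.12 ± 0.11, SE, adjusted p = 3.57e-10, edgeR's quasi-likelihood test). H2-Oa followed at -1.06 ± 0.10, Ciita at -0.95 ± 0.13 and H2-Ob at -0.92 ± 0.08, with edgeR adjusted p from 3.92e-12 to 9.51e-08. The classical chains differed less: H2-Ab1 by -0.58 ± 0.07, H2-Aa by -0.43 ± 0.07 and H2-Eb1 by -0.26 ± 0.07, and Cd74 by -0.29 ± 0.07. H2-DMa (-0.17 ± 0.08, edgeR adjusted p = 0.0698) and H2-DMb2 (-0.14 ± 0.07, edgeR adjusted p = 0.141) did not pass. Both passed as lower when only library size was used for scaling (-0.35 and -0.31, edgeR), a scaling that moved the median of all genes to -0.19 and the share of higher among called genes to 31.9%, from 53.9%. H2-DMa also passed with RLE factors (-0.18, edgeR adjusted p = 0.0493) and without Gonadotropin mouse 3 (-0.19, edgeR adjusted p = 0.0491) or 4 (-0.21, edgeR adjusted p = 0.0378). B-1-type cells were also deeper, with median UMIs of 14592 and 13355 per cell in Gonadotropin and Untreated mice, against 5790 and 5928 in follicular B cells. A lower level per UMI is therefore not a lower count per cell. In Untreated mice B-1-type cells were 14.2% of the cells and held 28.2% of the class II UMIs. Follicular B cells were 29.7% and held 38.8%. In Gonadotropin mice these values were 5.48% and 12.4%, against 29.3% and 46.4%. Counts per cell were not tested.

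Of the 32 other class II pathway genes in the table, 30 were tested between the B cell types, and 6 were higher and 14 lower in B-1-type cells. Cd80, a co-stimulator of T cells (4.70 ± 0.24), Cd9, Prdm1, Socs1 and Ifi30, the thiol reductase of the loading compartment (1.48 ± 0.09), were among the higher ones. Icosl, the ligand of ICOS on helper T cells (-4.21 ± 0.23), Irf8, a transcription factor of B and myeloid cells (-1.72 ± 0.11), and the peptidase gene Lgmn (-0.93 ± 0.18) were among the lower ones. The protease Ctss, which trims the invariant chain, was lower by a small amount (-0.25 ± 0.07), while Spi1 (0.14 ± 0.10), Rfx5 (-0.16 ± 0.23) and Sppl2a (-0.10 ± 0.10) did not pass edgeR's test.

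Dendritic cells and macrophages were compared in the 6 mice with at least 5 cells of each. The 7 members with counts in the macrophages of every one of these mice were all higher in dendritic cells, where 23.2% of the 3158 tested genes passed and 11.1% passed as higher (edgeR's quasi-likelihood test with the mouse as a block). H2-DMb2, H2-Oa and H2-Ob were nearly empty in macrophages and entered the fit through dendritic cells, so they are given as ratios of counts below and not as calls. H2-Aa had 7388, 7836 and 5361 CPM in dendritic cells of Gonadotropin mice 2, 4 and 5 and 6706, 7660 and 8619 CPM in those of Untreated mice 2, 4 and 5, whereas macrophages of the same mice had 1975, 4550 and 3179 CPM and 3500, 1283 and 2242 CPM. The groups of values did not overlap, and the log2 fold change was 1.47 ± 0.21 (adjusted p = 0.00018, edgeR's quasi-likelihood test). H2-Ab1, H2-Eb1, H2-DMa, H2-DMb1, Cd74 and Ciita lay between 1.34 and 1.64.

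The members that were nearly empty in macrophages had larger ratios, given with no test. Pooled over mice, dendritic cells had 25.2 times the H2-DMb2 CPM of macrophages (95% interval of counting error 12.4 to 59.4), 41.1 times the H2-Ob CPM (15.6 to 154) and 167 times the H2-Oa CPM (29.5 to 6673, with 1 count in macrophages). Ciita did not pass when Untreated mouse 5 was left out (1.41, edgeR adjusted p = 0.0631). Among the pathway genes, 19 were tested, of which 5 were higher, Ifi30 (1.34 ± 0.25), Irf8 (1.75 ± 0.31) and Irf4 (1.94 ± 0.56) among them, and 5 were lower (edgeR). The lysosomal protease genes Ctsd (-4.67 ± 0.39), Ctsl (-3.32 ± 0.42), Lgmn (-3.05 ± 0.41), Ctsb (-2.71 ± 0.22) and Ctss (-0.66 ± 0.17) were lower in dendritic cells than in macrophages.

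Monocytes, the circulating precursors of many tissue macrophages, had lower levels of all 7 members that could be tested against macrophages (10 mice, mouse as a block, 30% of 4802 genes called and 15.7% called as lower). The fold changes ran from -4.16 ± 0.33 for H2-Eb1, -3.73 ± 0.33 for H2-Aa and -3.36 ± 0.30 for H2-Ab1 over -2.71 ± 0.22 for Cd74, -2.16 ± 0.36 for Ciita and -1.85 ± 0.27 for H2-DMb1 to -0.97 ± 0.18 for H2-DMa (edgeR, adjusted p from 1.22e-09 to 0.000285). The median of the 7 was -2.71, against 0.00 over all genes. Of 22 pathway genes tested, 8 were higher and 4 lower in monocytes, the lower ones being Ctsd, Ctsl, Lgmn and Ctsb. This result depended on where the line between the types was drawn. With clusters in place of marker gates, none of the 7 was lower by edgeR's test (H2-Aa -0.74, H2-Ab1 -0.53, H2-Eb1 -0.71 and Cd74 -0.32), H2-DMa (0.18) and H2-DMb1 (0.26) changed sign, and Ciita was higher in monocytes (1.93, edgeR adjusted p = 0.00151).

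The gated macrophages lay in several clusters, made without the 10 genes. In cluster 6, which the monocyte markers name, 34 gated macrophages had 29579 CPM of the 10 genes and 257 CPM of Ciita, whereas the 93 gated monocytes of the same cluster had 2482 and 45.3 CPM. Cluster 22, with high Apoe (30055 CPM), held 50 gated macrophages at 21503 CPM of the 10 genes but only 16.9 CPM of Ciita, and its median was 2099 UMIs per cell. Cluster 26, with the resident macrophage markers Timd4 (114 CPM) and Icam2 (507 CPM), held 30 at 6366 CPM. Another 5 gated macrophages lay in cluster 20, which the dendritic markers name, at 24287 CPM of the 10 genes. Class II levels ranged widely within the gate, with the gated macrophages of cluster 6 at the upper end. The monocyte gene Ccr2 did not follow the same order. It was at 1027 CPM in gated macrophages of cluster 6, 1612 CPM in cluster 20, 92.9 CPM in cluster 22 and 357 CPM in cluster 26. The gated monocytes of cluster 6 had 1078 CPM of Ccr2.

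Classical and non-classical monocytes overlapped in their summed class II level per mouse, from 646 to 4595 CPM in 6 mice and from 637 to 4142 CPM in 8 mice. H2-DMa set them apart: 186 to 265 CPM in the classical ones, against 18.7 to 136 CPM in the non-classical ones, with no overlap of mice. No test was made of the H2-DMa difference.

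Single cells were compared after each was thinned to 2000 UMIs, which left out 6 follicular B cells, 1 B-1-type cell, 22 macrophages and 3 monocytes. The median was 88 class II UMIs in dendritic cells, 37 in follicular B cells, 24 in B-1-type cells, 23.5 in macrophages and 1 in monocytes. B cells were uniform: 92.9% of follicular B cells and 68.5% of B-1-type cells had at least 20 class II UMIs, and none was at 0. Macrophages ran from 0 at the 10th percentile to 104 at the 90th, with 12.2% of cells at 0 and 52.0% with at least 20. Monocytes were mostly low, with 36.3% at 0 and 7.35% with at least 20, and the top 10% of their cells held 71.3% of their class II UMIs. In macrophages the top 10% held 36.6%, against 15.9% in follicular B cells. T and NK cells were at 0 in 83.5% and 84.2% of cells.

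**Figure D3:**
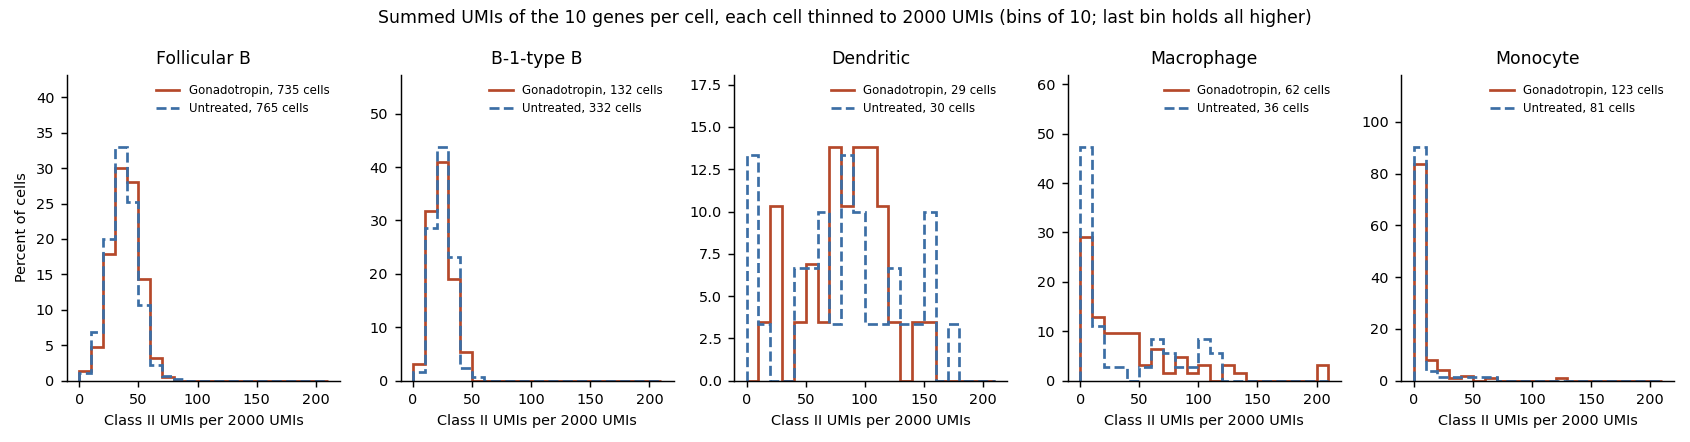
Percent of cells (vertical axis) by the summed UMIs of the 10 genes after thinning each cell to 2000 UMIs (horizontal axis, bins of 10, with all higher cells in the last bin). Solid lines are Gonadotropin cells and dashed lines Untreated cells. B cells form 1 peak near 37 and 24 UMIs, macrophages spread from 0 to beyond 100, and most monocytes are in the lowest bin.

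Gonadotropin treatment was compared with Untreated within each type. None of the 10 members passed in follicular B cells or B-1-type cells, and none of the 7 tested in monocytes (5 against 3 mice), by edgeR's quasi-likelihood test or by DESeq2. Of all genes, 1.38% were called in follicular B cells (104 of 7547, 0.702% higher and 0.676% lower), 0.261% in B-1-type cells (18 of 6905, 0.13% in each direction) and 0.217% in monocytes (10 of 4614, 0.0217% higher and 0.195% lower). In follicular B cells all 10 fold changes were above 0 with a median of 0.07, against -0.00 over all genes, and 4 members had an unadjusted edgeR p under 0.05. No member had such a p in the other types.

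The largest of these differences were small. H2-Oa had 178, 169, 144, 176 and 164 CPM in follicular B cells of the Gonadotropin mice, against 170, 137, 144, 156 and 123 CPM in those of the Untreated mice, with overlap (0.29 ± 0.10, 95% interval 0.09 to 0.49, edgeR adjusted p = 0.14). Ciita had 230, 129, 179, 176 and 214 CPM, against 136, 177, 168, 227 and 118 CPM (0.31 ± 0.14, 0.04 to 0.59, edgeR adjusted p = 0.277). For Cd74 the interval of the log2 fold change was -0.06 to 0.14 in follicular B cells and -0.27 to 0.19 in B-1-type cells. Summed erythrocyte markers (5 genes, with hemoglobin) moved with the group in follicular B cells: 38333 to 89588 CPM in 4 Gonadotropin mice and 61.9 CPM in the other, against 2.44 to 10.1 CPM in Untreated mice. The high values came from 19 cells, all in the Gonadotropin library, and without them no member passed by edgeR's test. The summed class II level without those cells was 19778, 16639, 18818, 18510 and 19571 CPM in the Gonadotropin mice, against 16397, 18312, 16851, 19012 and 17149 CPM in the Untreated mice, with overlap. The same markers were higher in the Gonadotropin library in T cells too (35.4 to 49.8 CPM, against 2.06 to 7.22 CPM in Untreated mice), and their part in the class II values was not tested beyond leaving out those 19 cells.

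In monocytes Ciita had the lowest value (-1.15 ± 0.55, 95% interval -2.30 to 0.01, edgeR adjusted p = 0.552). Too few mice had at least 10 cells for the planned test in macrophages (5 Gonadotropin and 2 Untreated mice) and in dendritic cells (1 mouse in each group). With at least 5 cells per mouse, no member passed in macrophages (5 against 5 mice, 7 tested) or in dendritic cells (3 against 3 mice, 10 tested), with no member at an unadjusted edgeR p under 0.05 and none passing by DESeq2. At that minimum 0% of genes were called in macrophages (0 of 2027, 141 at an unadjusted p under 0.05 by edgeR, 14 called by DESeq2) and 0% in dendritic cells (0 of 1908, 62 at an unadjusted p under 0.05). The intervals were wide: for H2-Aa in macrophages from -0.67 to 0.83, around 0.08, and in dendritic cells from -0.53 to 0.23, around -0.15.

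The treatment differences of B-1-type and follicular B cells were compared directly, and no member differed (0.0688% of 8719 genes called, 1 member at an unadjusted edgeR p under 0.05, none called by DESeq2). Between macrophages and follicular B cells the fit rested on 5 Gonadotropin and 2 Untreated mice with enough macrophages, and 0.0134% of 7450 genes were called. None of the 7 members with counts in macrophages passed by edgeR or DESeq2, and none of them had an unadjusted edgeR p under 0.05. H2-DMb2, H2-Oa and H2-Ob entered that fit through follicular B cells and are not read from it.

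**Figure D4:**
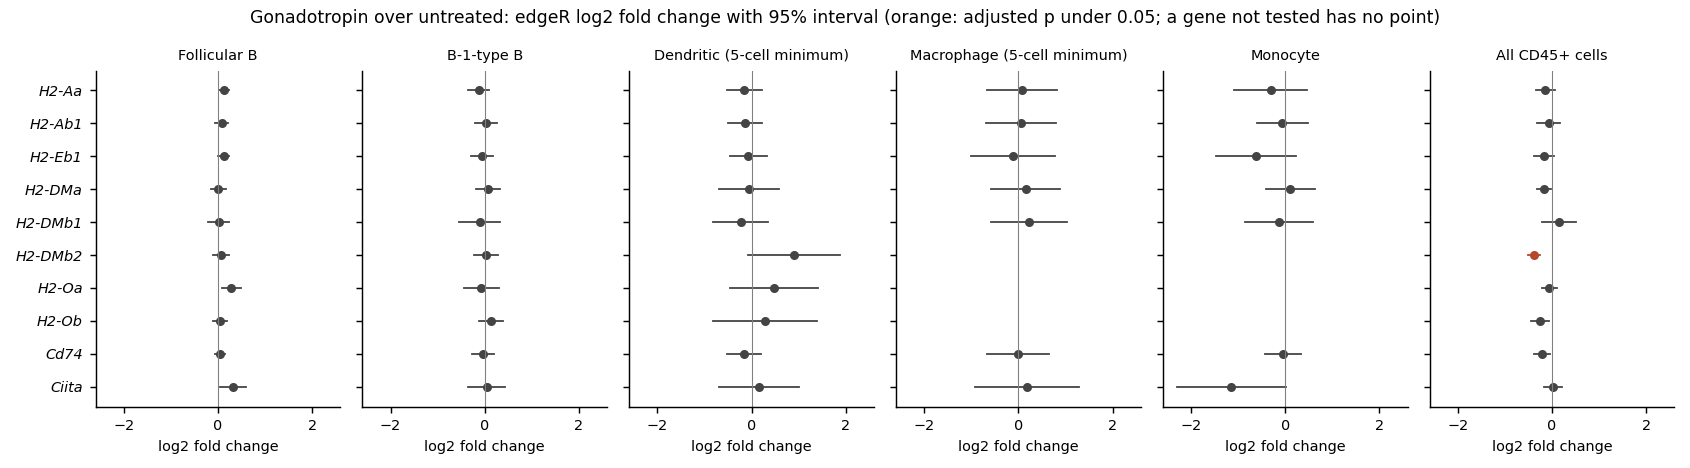
Log2 fold change of Gonadotropin over Untreated (horizontal axis) with its 95% interval for each member (vertical axis), in each type and in all CD45+ cells. Dendritic cells and macrophages are shown at a minimum of 5 cells per mouse, genes not tested have no point, and H2-DMb2 in all CD45+ cells (-0.38) is the only point that passed.

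Summed over all CD45+ cells of a mouse, H2-DMb2 was the only member called (9.12% of 11266 genes called, 4.15% as lower and 4.97% as higher). It had 133, 136, 132, 149 and 144 CPM in Gonadotropin mice, against 163, 181, 179, 184 and 164 CPM in Untreated mice, with no overlap (log2 fold change -0.38 ± 0.06, adjusted p = 0.00259, edgeR's quasi-likelihood test). In such sums, fewer cells of a type and less RNA per cell cannot be told apart. B-1-type cells were 2.13% to 6.88% of the cells of Gonadotropin mice, against 10.3% to 17.9% in Untreated mice. With B-1-type cells left out, H2-DMb2 kept a negative value but did not pass (-0.25 ± 0.08, edgeR adjusted p = 0.105). Genes called then fell from 1027 to 204. The part of B-1-type cells in the H2-DMb2 difference was not tested further. H2-Ob (-0.26 ± 0.09, edgeR adjusted p = 0.0864) passed only without Untreated mouse 3 (-0.32, adjusted p = 0.0430). Of the 32 pathway genes, Ctsd, Ctsl, Ctsb and Irf8 were higher and Cd86 and Irf4 lower in the sums of Gonadotropin mice (edgeR).

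The share of a mouse's class II transcripts carried by B-1-type cells differed between the groups, where treatment and library cannot be told apart. B-1-type cells held 4.54%, 13.8%, 15.5%, 14.5% and 13.7% of the class II UMIs in the Gonadotropin mice, against 23.4%, 20.8%, 40.5%, 34.1% and 22.1% in the Untreated mice. All 5 Gonadotropin mice lay below all 5 Untreated mice (12.4% ± 4.46 against 28.2% ± 8.66, exact two-sided permutation p = 0.00794, the smallest that 252 assignments allow, 0.0397 adjusted over the 5 types). The adjusted value was 0.0595 without Gonadotropin mouse 1 and 0.0794 without Gonadotropin mouse 3, 4 or 5, where fewer assignments exist. Their share of the cells moved with this, at 5.48% ± 2.04 against 14.2% ± 3.4 (n = 5 each). No member passed within B-1-type cells, by the edgeR test above.

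Follicular B cells held 46.4% ± 17.8 of the class II UMIs in Gonadotropin and 38.8% ± 7.95 in Untreated mice (exact permutation p = 0.452). Macrophages held 9.30% ± 7.92 and 3.63% ± 2.45 (exact permutation p = 0.119), and dendritic cells 11.2% ± 8.43 and 8.68% ± 5.14 (exact permutation p = 0.667), although dendritic cells were only 1.39% ± 0.84 and 1.22% ± 0.61 of the cells. Monocytes held 2.03% ± 0.72 and 0.839% ± 0.725 (exact permutation p = 0.0556, 0.139 adjusted), a difference that passed only without Gonadotropin mouse 2 (1.5 percentage points, adjusted p = 0.0397). T cells, NK cells and neutrophils together held 0.470% ± 0.136 and 0.311% ± 0.105. B cells that met neither B cell gate held 8.84% ± 1.68 and 12.6% ± 3.94, and the remaining cells 9.41% ± 3.88 and 6.95% ± 3.09, with no test made. Of the 380 B cells outside both gates, 165 lay in B-1-type clusters and 210 in follicular B clusters.

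**Figure D5:**
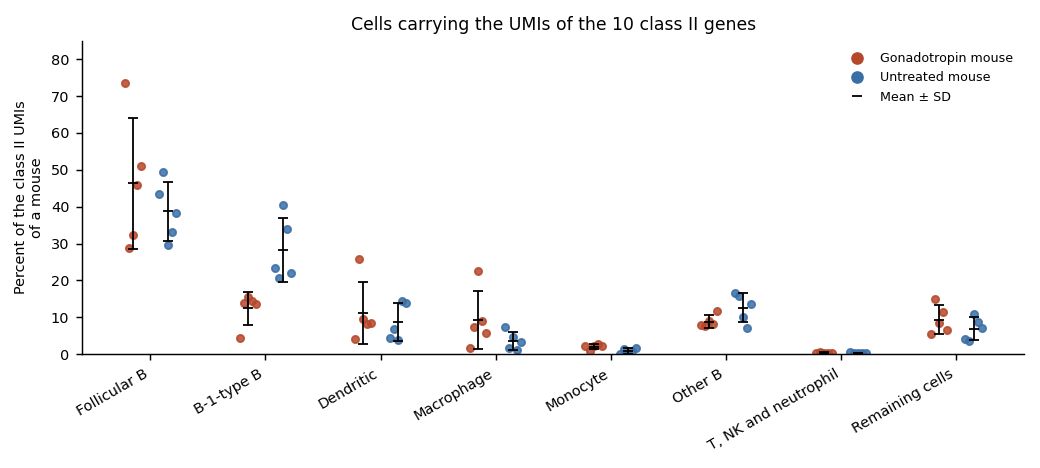
Percent of each mouse's class II UMIs (vertical axis) found in each gated cell type. Points are mice, bars are the mean ± SD of 5 mice, and Gonadotropin stands left of Untreated. B-1-type cells held 4.54% to 15.5% in Gonadotropin mice, below the 20.8% to 40.5% of Untreated mice, and follicular B cells held the largest mean share in both groups.

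The members differed in how closely they followed one another across 61 sums of 1 mouse and 1 type, on the log2 CPM scale. Pearson's r with the sum of the other members was 0.989 for H2-Ab1, 0.985 for Cd74, 0.982 for H2-Eb1, 0.974 for H2-Aa and 0.954 for Ciita. It was 0.902 for H2-DMb1, 0.856 for H2-DMa, 0.729 for H2-DMb2, 0.544 for H2-Oa and 0.536 for H2-Ob. The genes most like the summed members, of 6688 ranked, were Ly86 (0.955), Cd180 (0.932), Cd40 (0.927), Fgd2 (0.925), Pkib (0.920), Ifi30 (0.916), Scpep1 (0.908) and Smagp (0.903). These correlations describe the sums, which share mice, libraries and cell types. Of the sums, 10 were of T cells, 10 of NK cells and 4 of neutrophils, where the members are low, and only 2 of dendritic cells. Among presenting types the likeness was looser. Ly86, Cd180 and Cd40 were lower in dendritic than in follicular B cells (341 against 404, 133 against 158 and 19.7 against 66.4 CPM), and the other named genes were higher.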

How the data were processed

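Per the labels, CD45+ ovary leukocytes of 2 pools of 5 mice were sequenced as 10x 3' libraries. Per the submitters' processing notes, bcl2fastq, Cell Ranger, Seurat and the build mm10 were used, with versions not given in the sources used here. The authors deposited raw UMI counts per gene and barcode, with 6468 barcodes, and a hashtag table. The hashtag margin score, the gap between the best and next hashtag of a barcode, was deposited by the authors. From these, 5031 barcodes with 1 hashtag were taken (1348 hashtag doublets and 89 without a call were left out), of which 4918 passed a floor of 500 detected genes and a ceiling of 10% mitochondrial UMIs. Doublets of cells from the same mouse could not be seen from hashtags, and no caller was run.

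Cells were gated by marker counts (at least 4 of 6 B markers, 4 of 7 macrophage markers or 3 of 10 dendritic markers, for example), with thresholds set on the marker data. Counts were summed per mouse and type. CPM are those sums scaled here from the deposited counts. Tests used edgeR 4.0.16 (quasi-likelihood, TMM factors, filterByExpr, Benjamini-Hochberg threshold 0.05) in R 4.3.3, with sums of at least 10 cells, or 5 where dendritic cells or monocytes were compared with macrophages. In comparisons of types the mouse was a block, because both types came from it. UMI shares were tested by exact two-sided permutation (scipy 1.17.1). DESeq2 1.42.0, RLE factors, other filters and gates, Leiden clusters made without the members (scanpy 1.11.5, resolution 2), thinning to 2000 UMIs and leaving out each mouse were alternatives, and 4 more were added after seeing the data. Mice are separate animals, but each group is 1 library, so p-values measure the spread between mice only. Ratio intervals cover counting error at 95%. Scripts were tested on simulated data.

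The 10 members and the lists were chosen with earlier results of these data known. Members are named in every comparison, pathway genes where they passed, up to the 6 largest, with some fixed ones besides, and the 8 genes most like the members are named.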

Additional observations from a re-analysis of the deposited data

Results flagged for a closer look

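In 6 of 74 groups of mice examined, 1 mouse stood apart from the others of its group by Dixon's criterion, which chance meets in about 1 of 20 groups. In follicular B cells, H2-DMb1 was at 94.5 CPM in Untreated mouse 1, with the other Untreated mice at 117 to 121 CPM, and H2-Ob was at 517 CPM in Untreated mouse 4, with the others at 421 to 444 CPM. In B-1-type cells, H2-Oa was at 94.3 CPM in Gonadotropin mouse 3, with the other Gonadotropin mice at 48.6 to 61.7 CPM, and H2-Ab1 was at 1636 CPM in Untreated mouse 5, with the others at 1269 to 1347 CPM. In monocytes, Gonadotropin mouse 4 had 2086 CPM of Cd74, with the other Gonadotropin mice at 1244 to 1352 CPM, and 3875 CPM of the 10 members together, with the others at 2102 to 2507 CPM.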

How the results depend on the processing

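Over all alternatives, counts of called genes, shares and summed levels were rated unchanged in 177 cases. They moved in 47, were weaker in 4 and stronger in 1. Values of single members and counts of members were rated unchanged in 1522 cases, moved in 35, were weaker in 6, stronger in 6 and reversed in 3. Unchanged meant within 1.5-fold for counts and within 1 SD for summed levels. For a member called in either fit it meant the same sign and side of the threshold, and for other members within 1 SE. A change of sign where nothing was called could therefore be rated unchanged. Monocytes against macrophages reversed with clusters in place of gates for H2-DMa (0.18), H2-DMb1 (0.26) and Ciita (1.93), and the cause was not tested. Genes called for treatment in follicular B cells (104) were 235 with no filter on low counts, 66 with 1 more marker per gate, 160 with clusters, 54 after thinning and 55 to 186 with each mouse left out. In B-1-type cells (18) they were 60 with no filter, 34 with 1 more marker, 0 after thinning and 4 to 30 with each mouse left out. In monocytes (10) they were 80 with no filter, 20 with 1 more marker, 1 with at least 5 cells, 1 without the lowest 10% of hashtag margins, 0 with clusters, 0 after thinning and 5 to 11 with a mouse left out. In macrophages with at least 5 cells (0) they were 14 by DESeq2 and 0, 1, 4 or 5 with a mouse left out. In all CD45+ cells (1027) they were 204 without B-1-type cells and 682 to 1063 with a mouse left out. Genes called between dendritic cells and macrophages (732) were 444 with no replicate block and 432 to 841 with a mouse left out. Genes whose treatment difference varied between B-1-type and follicular B cells (6) were 21 with no filter, 10 with 1 more marker, 2 with clusters, 1 after thinning, 1 with no replicate block and 3 to 7 with a mouse left out. Between macrophages and follicular B cells (1) they were 23 with no filter, 10 with at least 5 cells, 0 with no replicate block and 1 to 6 with a mouse left out. The log2 ratio of the summed level in macrophages, 0.46 over 5 Gonadotropin and 2 Untreated mice, was 0.06 with at least 5 cells (5 mice in each group), -0.35 with clusters (1 Untreated mouse), 1.0 after thinning (3 Gonadotropin mice and 1 Untreated mouse) and 0.26 to 0.70 with a mouse left out. The difference in the share of class II UMIs ran from -17.6 to -12.7 percentage points in B-1-type cells and from 1.0 to 1.5 in monocytes with a mouse left out. It was less steady in follicular B cells (0.766 to 11.9), macrophages (2.34 to 7.57) and dendritic cells (-1.15 to 4.29, with a change of sign). No paired analysis was possible because the treatment groups are different animals whose numbers carry no pairing; the replicate block above is the mouse, from which both cell types came. The treatment test in B-1-type cells at a minimum of 20 cells could not be fitted, nor could the treatment test in monocytes without an Untreated mouse. Dendritic cells and macrophages are few per mouse, which limits what their treatment comparisons can show.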
